A study of Homo sapiens with 12 samples.

Results

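The LINC-named long noncoding RNAs are genes whose symbol is LINC and a number, a name given to intergenic transcripts that had no known function when they were catalogued. Members were chosen by their measured level: a LINC symbol with a mean of at least 1 CPM (a symbol's count per 1000000 counts of its library) in any of the study's 4 groups. The rule left 128 members of 740 LINC symbols, out of 25680 symbols in all. Of the other LINC symbols, 137 had no count in any library. Levels of members, and their differences between the lines, are therefore given as a description and support nothing.

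RNA was sequenced from U266 and MM.1S, human multiple myeloma cell lines, after 6 h with the solvent DMSO or with 6 µM of the compound IT848, an NF-kB inhibitor by its label. Both lines were kept in RPMI medium with fetal bovine serum. The 4 groups were U266 with DMSO, U266 with IT848, MM.1S with DMSO and MM.1S with IT848, with 3 libraries each and 12 libraries in all. No label states that libraries of the same group were grown apart, so p-values measure the spread between these libraries, which may be technical. Each line is a single established culture and stands for no wider group of myelomas.

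Long noncoding RNAs are transcribed and often spliced like messenger RNAs but were named for having no long reading frame. Some act on chromatin near their own gene, some bind proteins in the cytoplasm, and some turned out to encode small proteins. They are known for being restricted to particular cell types more often than messenger RNAs are. IT848 is given as a blocker of NF-kB, the transcription factor family on which many myeloma cells depend for survival.

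In the RefSeq reference of the GRCh38.p14 build, 118 members were matched by transcript and 10 by an older symbol, and 35 now have another name. The reference lists 116 of the members as long noncoding RNAs, 11 as protein coding and 1, LINC01296, as a transcribed pseudogene. The deposited tables hold only noncoding transcript records for all 128. A member's most counted transcript had a median length of 2155 bases, from 437 to 11193, and 90 members had 1 transcript. In the reference, 66 members overlap another gene, and the strand setting of the counting is not given in the sources used here, so reads of overlapping genes cannot be told apart. A near-identical copy in another gene, with at least 97% identity over at least 50% of the transcript, was found for 10 of 124 members searched. Among them LINC00152 (now CYTOR) shares 98.3% of its transcript with MIR4435-2HG, so its reads cannot be assigned with certainty.

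Of the members now listed as protein-coding genes, 2 had a single distinct reading frame short enough to print, and these frames are shown. Both genes appear below among the RNAs that rose in MM.1S, as do LINC00493 and LINC00094. The call of LINC01420 was lost with the length trend taken out. The frame of LINC00998 is 180 bases, or 59 codons before the stop, and encodes SMIM30, a small membrane protein. The frame of LINC01420 is 207 bases, or 68 codons before the stop, and encodes NBDY, a small protein that binds the messenger RNA decapping complex. The sequences come from the transcripts of GENCODE release 29, and capitals mark the start and stop codons.
LINC00998 (SMIM30): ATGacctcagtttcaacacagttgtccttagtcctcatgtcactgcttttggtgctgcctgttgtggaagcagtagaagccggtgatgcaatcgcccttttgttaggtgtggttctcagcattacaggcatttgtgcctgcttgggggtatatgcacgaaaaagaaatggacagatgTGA
LINC01420 (NBDY): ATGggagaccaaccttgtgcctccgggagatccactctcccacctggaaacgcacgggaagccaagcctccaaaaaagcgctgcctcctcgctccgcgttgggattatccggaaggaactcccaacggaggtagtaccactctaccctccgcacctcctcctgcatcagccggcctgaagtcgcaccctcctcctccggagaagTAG

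Total counts were 50627690 to 72039748 per library, and members held 0.150% to 0.153% of them in U266 and 0.0852% to 0.101% in MM.1S. All 128 members passed the filter on low counts, and the test covered 16782 symbols. From here on, CPM is scaled between libraries by the trimmed mean of M-values (TMM). The 6 plasma cell markers summed to 2449 to 2634 CPM in U266 with DMSO and 1774 to 1845 with IT848, and to 3348 to 3417 and 2215 to 2304 in MM.1S. The 5 stromal markers summed to 27.7 to 32.7 and 34.9 to 43.1 CPM in U266 and to 14.9 to 19.6 and 21.9 to 28.5 in MM.1S, with 1 marker below 1 CPM in every library. The 5 T and NK cell markers, 5 myeloid markers and 4 erythroid markers summed to no more than 6.66 CPM in any library, with 3 of each list below 1 CPM throughout and none at 0 in all libraries. These lists moved with IT848 in part, and their part in the members' responses was not tested. A library with none of a member's counts was given a floor of 3 counts, 0.0415 to 0.0594 CPM, which covers counting error only.

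In 2 libraries there were low levels of transcripts of the other line. U266 IT848 replicate 1 held 20 MM.1S genes at 0.938% of their MM.1S level, against 0.0963% and 0.102% in the other 2 libraries of its group. MM.1S DMSO replicate 2 held 43 U266 genes at 0.396% of their U266 level, against 0.0474% and 0.0710% in the other 2. The 24 U266 members that are near 0 in MM.1S were at 0.522% of their U266 level in MM.1S DMSO replicate 2, where 17 of them were detected, and at 0.0949% and 0.187% in the other 2 libraries, where 5 and 8 were detected. The 5 MM.1S members near 0 in U266 were at 1.44% in U266 IT848 replicate 1, with 3 detected. They were at 0.351% and 0.735% in the other 2 libraries of its group, with 3 and 5 detected. In replicate 1, 12 counts were of LINC00426, 6 of LINC00673 and 3 of LINC00920. MM.1S genes and members were picked as low in U266 DMSO, and U266 genes and members as low in MM.1S IT848. Libraries of those 2 groups are therefore low by choice. Levels that rest on such traces are therefore given per library.

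**Figure D1:**
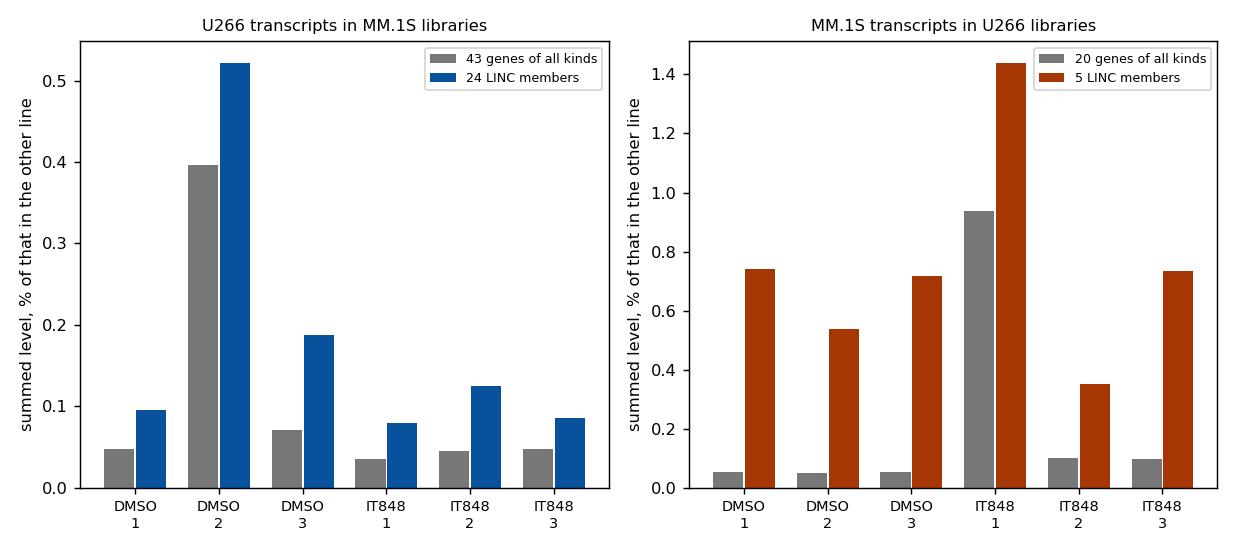
Summed level of transcripts of the other line in each library, as a percentage of the level in the line that has them. The left panel plots MM.1S libraries and the right panel U266 libraries, with grey bars for genes of all kinds and coloured bars for LINC members. MM.1S DMSO replicate 2 (0.522% for the 24 members) and U266 IT848 replicate 1 (1.44% for the 5 members) have the highest bars. Bars of MM.1S IT848 and U266 DMSO libraries are low by the choice of genes and members.

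Per length of transcript, a small number of members carried most of the signal. The summed FPKM (fragments per kilobase of transcript, scaled to library size, as deposited) of the 128 members' most counted transcripts was 595.1 in U266 and 403.2 in MM.1S under DMSO. The 6 highest members held 51.4% and 61.97% of it. The highest in both lines was LINC01480, an RNA of 478 bases on chromosome 19 beside CEACAM21, at 105.1 ± 1.97 FPKM among U266 libraries and 149.9 ± 8.92 among MM.1S libraries (SD, n = 3). LINC00657 (NORAD), a cytoplasmic RNA known for binding PUMILIO proteins, stood at 54.0 ± 2.80 and 28.2 ± 1.39 FPKM. LINC00152, an RNA often raised in tumours, was the second in U266 at 58.7 ± 0.606 FPKM and lower in MM.1S at 12.04 ± 1.15. LINC00998 and LINC00493, which encode the small membrane proteins SMIM30 and SMIM26, stood at 28.1 ± 1.02 and 27.6 ± 1.61 FPKM in U266, values within their SD of each other. In MM.1S they stood at 19.7 ± 1.203 and 24.9 ± 1.71 FPKM.

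Of the other high members, LINC01287 and LINC00996 belonged to a single line. LINC01287 was the fourth in U266 at 32.6 ± 1.71 FPKM and close to 0 in MM.1S at 0.073 ± 0.073. LINC00996, a neighbour of the GIMAP genes on chromosome 7, was the fifth in MM.1S at 14.9 ± 0.953 FPKM and 0.150 ± 0.014 in U266. LINC01420 (NBDY) closed the 6 highest of MM.1S at 12.3 ± 0.797 FPKM, against 19.2 ± 1.23 in U266. The median member was at 1.32 FPKM in U266 and 0.559 FPKM in MM.1S.

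Most members differed in level between the lines. On the rule's scale, 66 members reached 1 CPM in both lines, 47 in U266 alone and 15 in MM.1S alone, and 60 reached it in all 4 groups. Under DMSO, 115 members were called different between the lines (edgeR's quasi-likelihood test, adjusted p below 0.05), 30 higher in MM.1S and 85 higher in U266. Over all symbols, 82.6% were called, 40.6% higher in MM.1S and 42.1% higher in U266. The groups did not overlap for 115 members, against 84.7% of all symbols. Members that reached the threshold in 1 line only had to differ, so nothing is read from these counts. The median log2 difference, MM.1S minus U266, was -0.94 over members and -0.02 over all symbols. Among the 60 members that reached 1 CPM in all 4 groups, 15 were higher in MM.1S and 34 in U266, with a median of -0.48.

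Large differences were called more often toward U266. The rule admitted 47 members through U266 alone and 15 through MM.1S alone, and such members had to differ. Nothing is therefore read from the direction or number of these calls. At least 8-fold differences were called for 34 members higher in U266 and 6 higher in MM.1S, against 8.84% and 7.65% of all symbols (16.5% in either direction). At 32-fold the counts were 26 and 5, against 4.89% and 4.14% of all symbols (9.03% in either direction). These counts use fitted values. LINC00958 and LINC01194, without a count in MM.1S DMSO, are among the 26 although their bounds are 18.0-fold and 24.96-fold. Under IT848, 112 members were called between the lines (80.9% of all symbols), 31 higher in MM.1S and 81 higher in U266 (39.4% and 41.6% of all symbols), and the groups did not overlap for 109 (81.6% of all symbols).

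**Figure D2:**
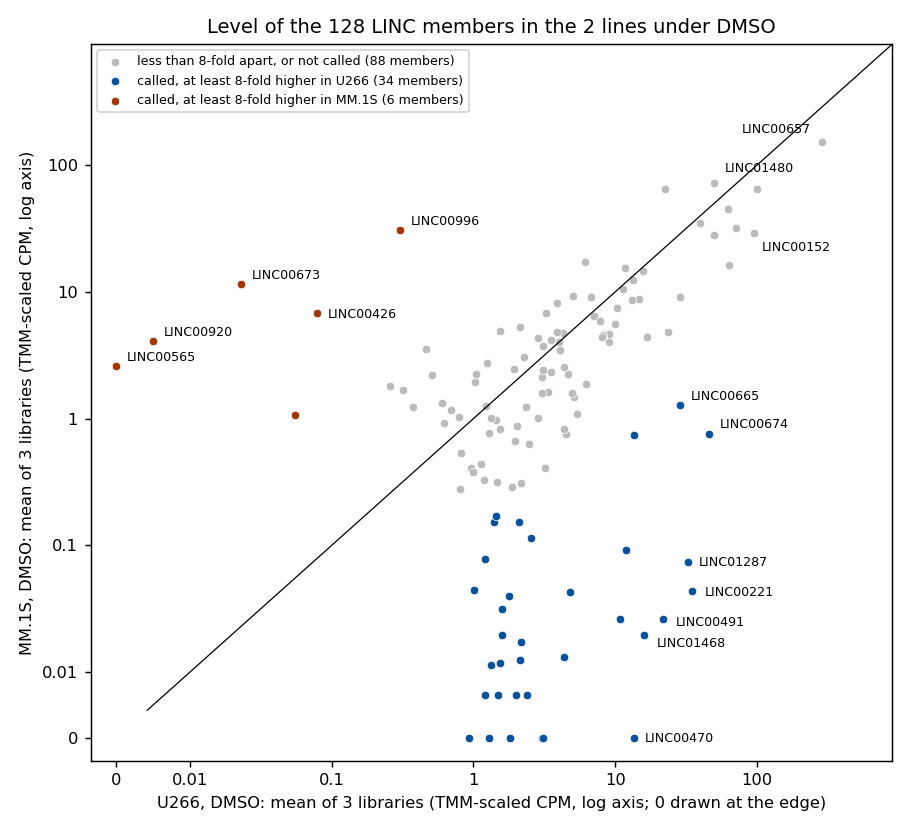
Mean level of each member under DMSO in U266 (horizontal axis) and MM.1S (vertical axis), in TMM-scaled CPM on log axes, with members at 0 drawn at the edge and the line of equal levels. Blue points are the 34 members called and at least 8-fold higher in U266, red points the 6 called and at least 8-fold higher in MM.1S, and the 88 grey points all others; most blue points lie below 0.2 CPM in MM.1S.

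Among members of U266, LINC00470 had 12.9, 13.6 and 13.8 CPM in the DMSO libraries and no count in any of the 6 MM.1S libraries, a level at least 67.7-fold higher in U266. This bound and the ratios below count reads of the most counted transcript, so that each read enters once. LINC00463, LINC01053 and LINC01194 also had no count in those 6 libraries, and their U266 levels were at least 35.3-fold, 59.2-fold and 24.96-fold higher under DMSO. LINC00958 and LINC01341 had none in the MM.1S DMSO libraries, for bounds of 18.0-fold and 60.1-fold. These 6 RNAs are grouped here by having no count in the MM.1S DMSO libraries. Their absence from replicate 2, the library with traces of U266 transcripts, follows from that grouping.

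Other U266-restricted members had a few counts in MM.1S. LINC01287 had 31.3, 34.6 and 31.5 CPM in U266 DMSO and 0.0282, 0.158 and 0.0351 CPM in MM.1S DMSO, with the highest MM.1S value in replicate 2. Its log2 difference was -8.87, and -9.92 with that library left out. LINC00221, which overlaps the immunoglobulin heavy chain locus IGH on chromosome 14, had 35.2, 36.2 and 33.6 CPM in U266 DMSO and 0, 0.0791 and 0.0527 in MM.1S DMSO, a ratio of 892 (95% counting interval 433 to 2219). LINC00491 had 21.6, 22.8 and 20.3 CPM in U266 and was detected in MM.1S DMSO only in replicate 2, at 0.0791 CPM. Every U266 library was far above every MM.1S library. In MM.1S with IT848, LINC01287 and LINC00221 had 5 counts each. Under DMSO, the few MM.1S reads lay mostly in the library that held other U266 transcripts. With it left out, the log2 difference of LINC00221 went from -9.72 to -10.42, and LINC00491 had no count in MM.1S DMSO. LINC01468 (LNCAROD), named as an activating regulator of DKK1, its neighbour on chromosome 10, followed the same course, with 15.1, 15.9 and 16.7 CPM in U266 and 0, 0.0593 and 0 in MM.1S DMSO, where replicate 2 alone held a count.

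A further set was high in U266 and low but present in MM.1S. LINC00674 had 46.0 ± 0.768 CPM in U266 DMSO and 0.758 ± 0.187 in MM.1S DMSO. LINC00665, known to encode a micropeptide in some tumours, had 28.5 ± 0.714 and 1.27 ± 0.476 CPM. LINC00963 had 13.6 ± 0.555 and 0.746 ± 0.101 CPM (SD, n = 3 for each). These MM.1S levels exceed the traces seen for the restricted members in every library of the line.

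The MM.1S side was shorter. LINC00673 had 11.2, 11.1 and 12.2 CPM in MM.1S DMSO and 0.0362, 0.0164 and 0.0160 in U266 DMSO, a ratio of 512 (199.7 to 1881). LINC00996 had 32.7, 29.97 and 29.3 CPM in MM.1S and 0.308, 0.328 and 0.271 in U266. LINC00426 had 6.89, 6.17 and 7.43 CPM in MM.1S and 0.0906, 0.0821 and 0.0639 in U266. All 3 were separated between the lines in every library. LINC00565 (SWINGN), named for binding the SWI/SNF chromatin remodeller, had 2.70, 3.09 and 1.98 CPM in MM.1S DMSO and no count in U266 DMSO, at least 51.3-fold higher in MM.1S. LINC00920 had 3.56, 3.92 and 4.69 CPM in MM.1S and 1 count over the 3 U266 DMSO libraries, a ratio of 719 (128.6 to 28440). LINC00582, LINC00539 and LINC01011 were higher in MM.1S by 4.197, 2.94 and 2.81 on the log2 scale, LINC00173 by 2.39 and LINC00880 by 2.09.

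Of the 11 members now listed as protein coding, 3 were called higher in MM.1S under DMSO, 5 were called higher in U266 and 3 were not called. LINC00116 (MTLN) was higher in MM.1S by 1.07 on the log2 scale, LINC00094 (BRD3OS) by 0.45 and LINC00341 (SYNE3) by 0.39. LINC00998 (SMIM30) and LINC01420 (NBDY) were lower in MM.1S by log2 values of -0.49 and -0.62, and LINC00493 (SMIM26), at -0.12, was not called. LINC00634 (SMIM45), which encodes a small membrane protein, had 1.32, 0.985 and 1.32 CPM in U266 DMSO and 0.0563, 0.158 and 0.0176 in MM.1S DMSO. Its log2 difference was -4.01, and -4.88 without MM.1S DMSO replicate 2. LINC00461 (MIR9-2HG), the host of a miR-9 precursor, had 9.06 ± 0.618 CPM in U266 DMSO and 4.01 ± 0.469 in MM.1S DMSO (SD, n = 3), and LINC00263 (OLMALINC) had 6.26 ± 0.215 and 1.89 ± 0.215. LINC00176 (C20orf204) was lower in MM.1S by a log2 value of -1.97 (-2.38 without MM.1S DMSO replicate 2) and LINC00672 (LASP1NB) by -0.55, the latter not called without U266 DMSO replicate 1 or MM.1S DMSO replicate 3. LINC01125 (C2orf92) and LINC00950 (TMEM8B) were not called between the lines, at -0.38 and 0.39, and none of these 7 was called with IT848 in either line.

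Protein-coding neighbours of members gave a mixed picture. Over 195 pairs of a member and its nearest tested coding neighbour on either side, Spearman's rho of the log2 line differences was 0.30, a description over genes, which are not independent replicates. GIMAP8, which encodes a small GTPase of lymphocytes beside LINC00996, was higher in MM.1S by 8.46 on the log2 scale. PROK2, a secreted ligand gene beside LINC00877, was lower in MM.1S by a log2 value of -9.75, and LINC00877 by -5.49. DKK1, which encodes a WNT antagonist beside LINC01468, differed by -0.95, and PAM, beside LINC00491, was higher in MM.1S by 1.76 while LINC00491 was near 0 there.

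In U266, few members were called with IT848. The test called 6 of 128, 1 higher and 5 lower, against 9.01% of all symbols (4.03% higher, 4.98% lower). At an unadjusted p below 0.05 there were 23 members, and DESeq2 called 7. Groups did not overlap for 30 members, against 28.9% of all symbols. The median log2 change was 0.01 over members and over all symbols. Its median absolute value was 0.16 over members and 0.11 over all symbols, which are not matched for level. With the most counted transcript in place of the sum, or with only the U266 libraries in the fit, 12 were called, 6 higher and 6 lower, and without U266 IT848 replicate 1, the library with traces of MM.1S transcripts, there were 2, both lower.

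Among the members called in U266, LINC00891, on chromosome X, had the largest fall. Its levels were 4.02, 5.25 and 4.10 CPM with DMSO and 2.43, 2.61 and 2.59 with IT848, a log2 change of -0.81 ± 0.14 (SE, edgeR adjusted p = 0.00125). The groups were well apart, and the call held in all 20 alternatives run. LINC01502 went from 12.1, 9.01 and 11.4 CPM to 7.09, 6.86 and 7.45 (-0.60 ± 0.15, edgeR adjusted p = 0.0175), and its call was lost when any U266 library other than DMSO replicate 2 was left out. LINC01021 (PURPL), a p53-induced RNA known for lowering p53 levels, went from 11.8, 12.03 and 12.1 CPM to 7.65, 9.66 and 8.67 (-0.47 ± 0.10, edgeR adjusted p = 0.00943). Without U266 IT848 replicate 1 its change was -0.39, with an adjusted p of 0.0517. LINC00963 was the member called higher, from 13.98, 12.9 and 13.8 CPM to 16.5, 16.4 and 16.3 (0.27 ± 0.07, edgeR adjusted p = 0.0255). Its groups did not overlap, but leaving out any of the 6 U266 libraries raised the adjusted p above the threshold, to between 0.0607 and 0.0968.

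In MM.1S, more members responded. The test called 40 of 128 (31.2%), 25 higher and 15 lower, against 38.3% of all symbols (18.7% higher, 19.6% lower). The median absolute log2 change was 0.37 over members and 0.23 over all symbols. Members are not matched to all symbols for level, so nothing is read from the lower share called. At least 2-fold changes were called for 4 members higher and 3 lower, against 1.66% and 1.23% of all symbols (2.9% in either direction). Among them, LINC01087, LINC01021 and LINC00877 had few counts, and LINC01023 and LINC00173 passed the rule only through groups where they were high. Calls of LINC00884 and LINC00173 were lost without single libraries, and reads of LINC00152 may be shared with a near-identical copy. Nothing is read from these 2-fold counts. Groups did not overlap for 50 members (47.2% of all symbols), among them all 40 called. The median log2 change was -0.02 over members and -0.01 over all symbols. In a fit of the MM.1S libraries alone, 99 members passed the filter on low counts, and 31 of them were called, 20 higher and 11 lower.

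Among members above 10 CPM in MM.1S, LINC00152 had the highest fold of the risers, on reads that its near-identical copy may share. It had 28.5, 26.4 and 32.6 CPM with DMSO and 53.2, 60.5 and 67.6 with IT848, a log2 change of 1.05 ± 0.09 (SE, edgeR adjusted p = 6.3e-07). In U266 it had 96.5, 97.6 and 93.0 CPM with DMSO and 102, 92.5 and 102 with IT848, and its change of 0.05 ± 0.08 was not called. IT848-treated MM.1S thus stood between untreated MM.1S and U266 in every library. The symbol MIR4435-1HG, which has its own counts, was called higher in MM.1S as well, by 0.58, from 48.8 ± 3.31 CPM to 73.0 ± 9.01 (SD, n = 3). Whether MIR4435-1HG is the near-identical copy of LINC00152 under another name was not tested, and reads may be shared. Its rise is therefore not read as independent of the rise of LINC00152. The abundant LINC00657 (NORAD) had 152, 158 and 145 CPM with DMSO and 222, 208 and 197 with IT848 (0.46 ± 0.06, edgeR adjusted p = 1.72e-05), while U266 levels of 269, 300 and 286 with DMSO and 296, 325 and 305 with IT848 overlapped.

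Some of the 25 risers in MM.1S carry small reading frames. LINC00998 (SMIM30) had 41.6, 44.5 and 47.6 CPM with DMSO and 59.6, 65.1 and 84.5 with IT848 (0.65 ± 0.10, edgeR adjusted p = 0.000226). LINC00493 (SMIM26) had 12.1, 11.5 and 13.3 CPM with DMSO and 16.8, 17.8 and 22.2 with IT848 (0.62 ± 0.10, edgeR adjusted p = 0.000166). In both, IT848 replicate 3 was the highest library, and the change without it was 0.49. LINC00467, which encodes a mitochondrial microprotein named ASAP, had 4.25, 3.996 and 4.23 CPM with DMSO and 5.99, 7.02 and 8.12 with IT848 (0.76 ± 0.12, edgeR adjusted p = 0.000147). LINC01420 (NBDY) rose by 0.32 ± 0.07 (edgeR adjusted p = 0.00356), and LINC00094 (BRD3OS) by 0.19 ± 0.07 (edgeR adjusted p = 0.0426), a call lost without MM.1S DMSO replicates 2 or 3 or MM.1S IT848 replicates 2 or 3. Of the 11 members now listed as protein coding, 4 were called higher in MM.1S, LINC00998, LINC00493, LINC01420 and LINC00094, and 1 was called lower, LINC00341. Over all symbols 18.7% were called higher and 19.6% lower, and over the members 25 and 15 of 128. LINC00116 (MTLN), which encodes a peptide of the mitochondrial inner membrane, had a change of 0.33 ± 0.17 that was not called.

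Transcript length moved with the response in MM.1S. Spearman's rho between length and log2 change was -0.24 over the 128 members and -0.17 over all 16782 symbols, a description over genes. The members that rose had a median length of 1845 bases, those that fell 3305, and the members not called 2154.5. With the length trend of each library taken out, 40 members were again called, 23 higher and 17 lower. LINC01420 then had a change of 0.08 and was no longer called, LINC00493 had 0.35, LINC01480 0.38, LINC00998 0.47 and LINC00152 0.83, while LINC00657, the longest of these, had 0.54.

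The remaining risers in MM.1S were less abundant. LINC01023, an RNA of 437 bases that reached the rule's threshold with IT848 alone in both lines, had 0.620, 0.495 and 0.492 CPM with DMSO and 1.22, 1.42 and 1.16 with IT848 (1.23 ± 0.18, edgeR adjusted p = 0.000115). Its U266 change of 0.52 ± 0.17 was not called, although its U266 groups did not overlap either. Its rise is not independent of the rule. LINC00324 went from 1.48, 1.01 and 1.02 CPM to 1.78, 2.499 and 2.73 (0.98 ± 0.22, edgeR adjusted p = 0.0032). LINC00472 went from 4.39, 3.09 and 3.79 CPM to 6.96, 5.89 and 6.00 (0.73 ± 0.18, edgeR adjusted p = 0.00494). LINC00884 (ATP13A3-DT), the divergent transcript of ATP13A3, was called at 1.03 ± 0.34 from levels of 0.113 to 0.456 CPM, and the call was lost without MM.1S DMSO replicates 1 or 2 or MM.1S IT848 replicate 3. LINC00877 had 6 counts over the 3 DMSO libraries and 27 over the IT848 libraries, a ratio of 4.79 (95% counting interval 1.94 to 14.2), at a level below 0.21 CPM. LINC01289, LINC00526, LINC00936 and LINC01518 were called at 0.79, 0.79, 0.71 and 0.68, LINC00883 at 0.63 and LINC01003 at 0.50. LINC00667, LINC00909 (ZNF407-AS1) and LINC00888 (SNHG33), which reached 14.7, 8.76 and 34.8 CPM with DMSO, were called at 0.41, 0.37 and 0.27. The 4 other risers, LINC01480, LINC00957, LINC00963 and LINC00933, are described with their U266 values. The call of LINC00933, 0.58 with an edgeR adjusted p of 0.046, was lost in 9 of 20 alternatives, DESeq2 among them.

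**Figure D3:**
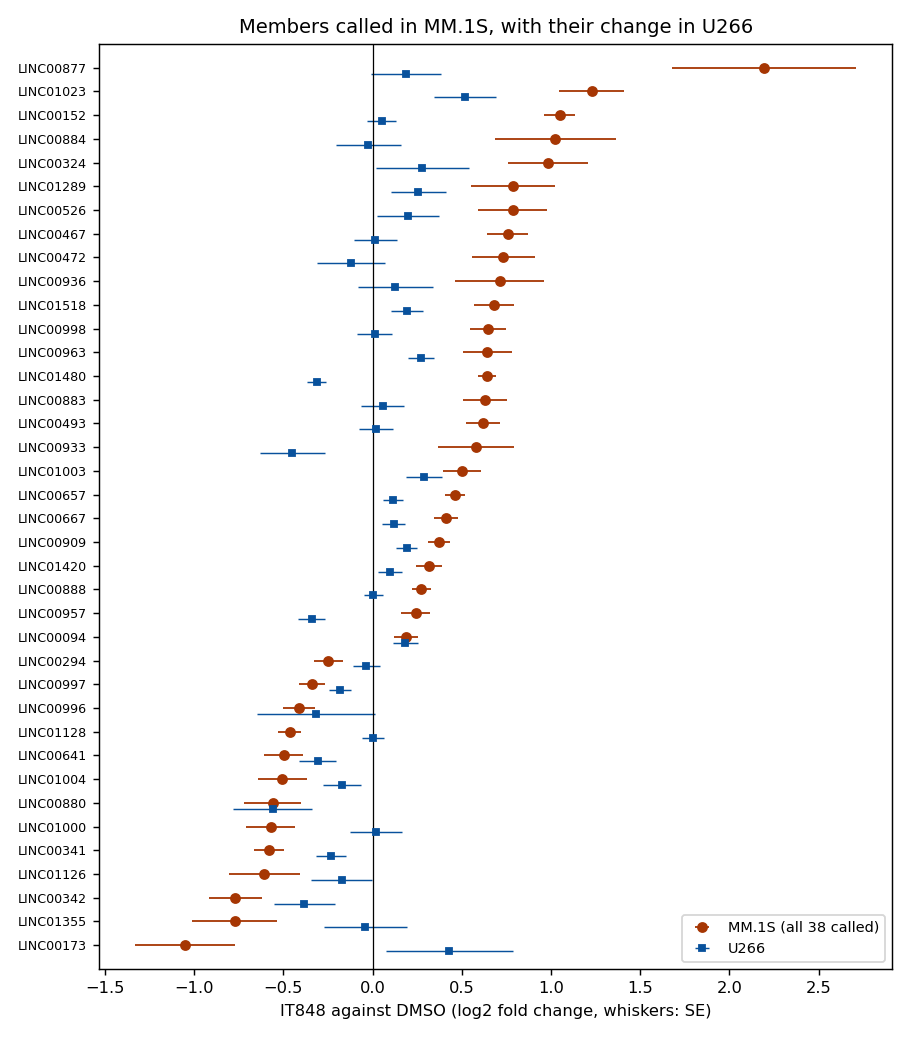
Log2 fold change with IT848 (horizontal axis, whiskers are SE) of 38 of the 40 members called in MM.1S, with their change in U266 as blue squares; LINC01087 and LINC01021, which have near-zero counts in MM.1S, are left out. Red points run from -1.05 (LINC00173) to 2.19 (LINC00877), and most blue squares lie nearer to 0. Members were picked by their call in MM.1S, which favours larger changes there.

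Among members that fell in MM.1S, the abundant LINC01128 had 69.6, 65.5 and 60.4 CPM with DMSO and 49.2, 45.1 and 47.2 with IT848 (-0.47 ± 0.06, edgeR adjusted p = 6.05e-05). LINC01000 had 75.8, 65.7 and 53.1 CPM with DMSO and 50.1, 45.9 and 35.0 with IT848 (-0.57 ± 0.14, edgeR adjusted p = 0.00579). The lowest DMSO library of LINC01000 lay just above its highest IT848 library. LINC00341, now listed under SYNE3, a nuclear envelope gene, fell from 16.03, 15.9 and 14.3 CPM to 10.6, 11.1 and 9.17 (-0.58 ± 0.08, edgeR adjusted p = 8.73e-05). LINC00342 fell from 20.0, 16.5 and 14.8 CPM to 11.2, 10.8 and 8.18 (-0.77 ± 0.15, edgeR adjusted p = 0.00136). LINC00996, the high MM.1S-restricted RNA, fell from 32.7, 29.97 and 29.3 CPM to 24.9, 23.9 and 20.4 (-0.41 ± 0.09, edgeR adjusted p = 0.0026). Its coding neighbours GIMAP8 and LOC728743 were called lower too, at -0.51 and -0.69.

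Other RNAs also fell in MM.1S. LINC00173 had 2.17, 1.56 and 1.26 CPM with DMSO and 1.15, 0.804 and 0.456 with IT848 (-1.05 ± 0.28, edgeR adjusted p = 0.00823), and its call was lost without MM.1S DMSO replicate 1, at -0.80. The rule admitted LINC00173 on the MM.1S DMSO group alone, so its fall there is not independent of the rule. LINC01021 had 16 counts over the MM.1S DMSO libraries, 7 of them in replicate 2, and 1 count over the IT848 libraries, a 15.03-fold lower level (95% counting interval 2.34 to 630.4). LINC01087 had 8 counts with DMSO and none with IT848, too few for a fold. LINC01355, LINC01126, LINC00880, LINC01004 and LINC00641 were called at -0.77, -0.61, -0.56, -0.51 and -0.50, and LINC00997 and LINC00294 at -0.34 and -0.25. The calls of LINC00936, LINC01289, LINC01355, LINC01126 and LINC00880 were lost without MM.1S DMSO replicate 1, and each was lost without 1 to 3 other single MM.1S libraries. That of LINC00294 was lost without MM.1S DMSO replicate 1 or MM.1S IT848 replicates 2 or 3.

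**Figure D4:**
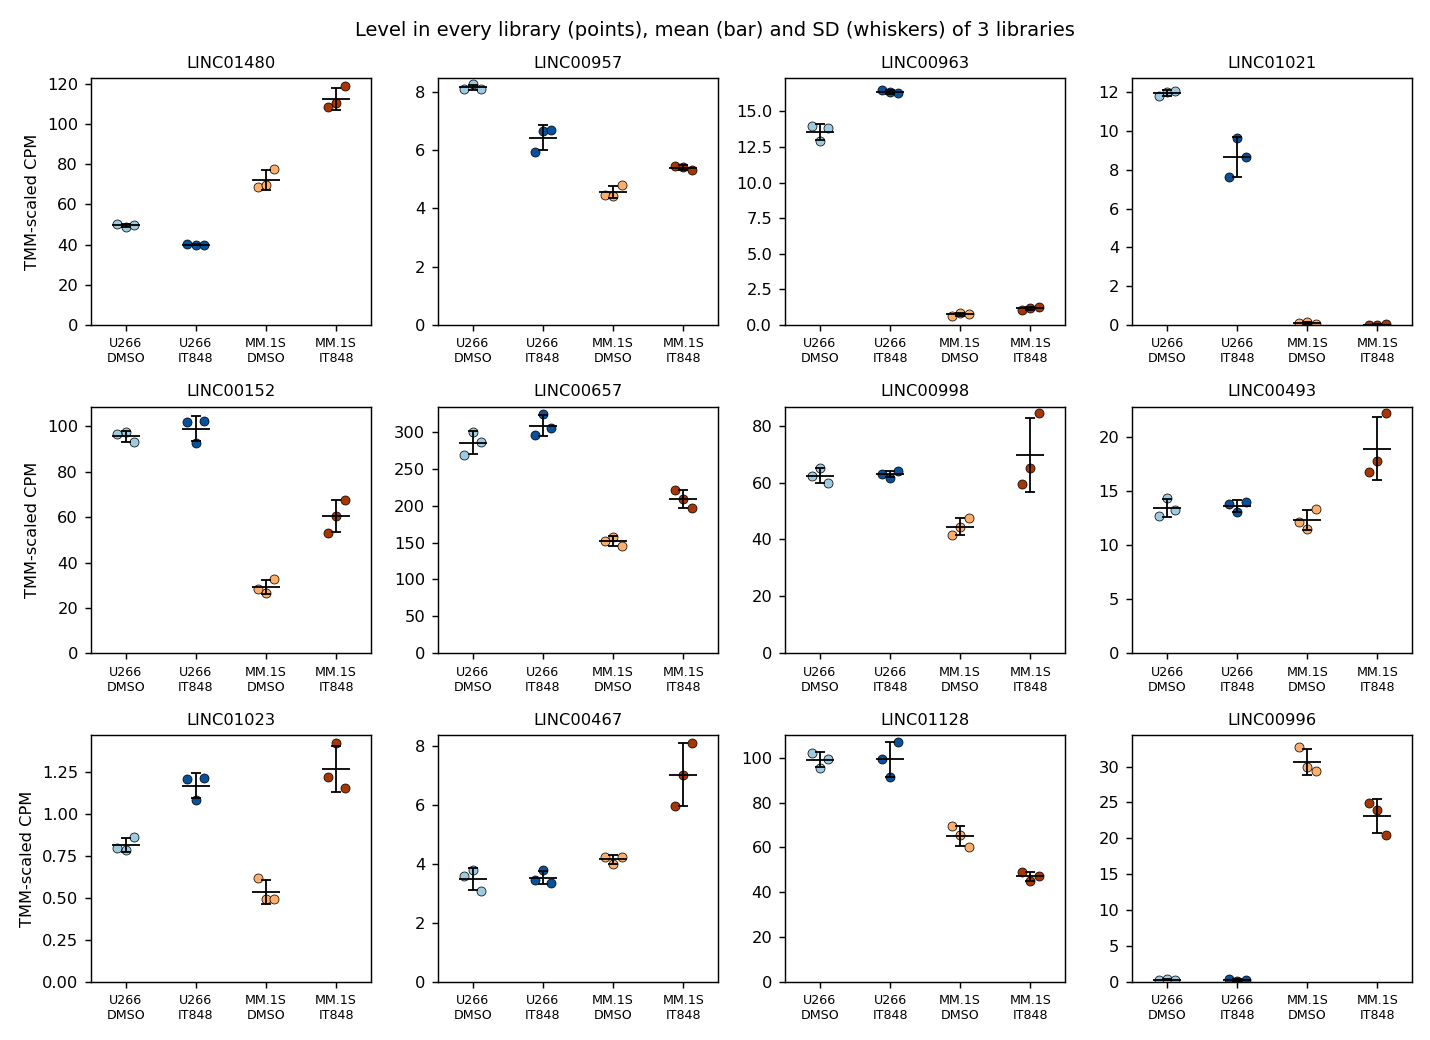
Level of 12 members in every library, in TMM-scaled CPM from 0, with a panel per member and columns for U266 DMSO, U266 IT848, MM.1S DMSO and MM.1S IT848 (points are libraries, bars means and whiskers SD, n = 3). LINC01480 and LINC00957 go down with IT848 in U266 and up in MM.1S, and LINC00152 shows separate groups in MM.1S only.

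Side by side, 4 members were called in both lines. Over all symbols, 9.01% were called in U266 and 38.3% in MM.1S. The share called in both lines, in equal or opposite directions, was not computed, so nothing is read from the number of such members. LINC00963 was called higher in both, with MM.1S levels of 0.634, 0.831 and 0.772 CPM with DMSO and 1.04, 1.16 and 1.25 with IT848 (0.64 ± 0.14). LINC01021 was called lower in both, on the few MM.1S counts given above. LINC01480 and LINC00957 were called in opposite directions. Of the 25 members that rose in MM.1S, 20 had a change above 0 in U266, with a median of 0.11 there and 0.64 in MM.1S. Of the 15 that fell, 12 had a change below 0 in U266, with medians of -0.18 and -0.57. These members were picked by their call in MM.1S, which favours larger changes there. The share of equal signs among all symbols called in MM.1S was not computed, so nothing is read from these counts and medians.

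LINC01480 had the most precise opposite response. In U266 it had 50.2, 48.8 and 49.8 CPM with DMSO and 40.1, 39.7 and 39.8 with IT848 (-0.31 ± 0.05, edgeR adjusted p = 0.00133). In MM.1S it had 68.9, 69.7 and 77.8 CPM with DMSO and 108, 110 and 119 with IT848 (0.64 ± 0.05, edgeR adjusted p = 3.52e-07). The difference of the responses was 0.96 ± 0.07 (edgeR adjusted p = 1.19e-06), and the groups were apart in both lines. CEACAM21, a cell adhesion gene that follows LINC01480 on chromosome 19, was called in the same 2 directions, at -0.52 in U266 and 0.28 in MM.1S. LINC00957, which overlaps the pseudogene RASA4CP on chromosome 7, had 8.08, 8.26 and 8.09 CPM with DMSO and 5.94, 6.64 and 6.69 with IT848 in U266. In MM.1S it had 4.44, 4.43 and 4.81 CPM with DMSO and 5.44, 5.43 and 5.29 with IT848, a change of 0.24 ± 0.08 beside -0.34 ± 0.08 in U266. Its U266 call was lost without U266 IT848 replicate 1, at -0.29. Its MM.1S call was lost without MM.1S DMSO replicates 1 or 2 or MM.1S IT848 replicate 2, with the most counted transcript and with the length trend taken out, at 0.16 to 0.24. The difference of its responses, 0.58 ± 0.11 (edgeR adjusted p = 0.00244), was called in all 19 alternatives run.

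The difference of the responses was called for 18 members, 14 more positive and 4 more negative in MM.1S than in U266, against 17.4% of all symbols (8.49% and 8.94%). All 18 were called in MM.1S and 3 in U266. Without MM.1S DMSO replicate 2 the count was 10, and without MM.1S IT848 replicate 2 it was 11. LINC00152 differed by 0.999 ± 0.12 (edgeR adjusted p = 8.77e-05), LINC00998 by 0.63 ± 0.14, LINC00493 by 0.60 ± 0.14 and LINC00657 by 0.35 ± 0.08. LINC01128 differed by -0.47 ± 0.09 (edgeR adjusted p = 0.0027). LINC00472, LINC00467, LINC00883, LINC01518, LINC00667 and LINC00888 were called too, at 0.85, 0.74, 0.57, 0.49, 0.29 and 0.27. Apart from LINC00467, each of these calls was lost without U266 IT848 replicate 1 and without at least 3 other single libraries, and those of LINC00472, LINC00883, LINC00667 and LINC00888 also without MM.1S DMSO replicate 2. For the other 11 risers in MM.1S the difference was not called, among them LINC01023 at 0.71 ± 0.25 (edgeR adjusted p = 0.0675).

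**Figure D5:**
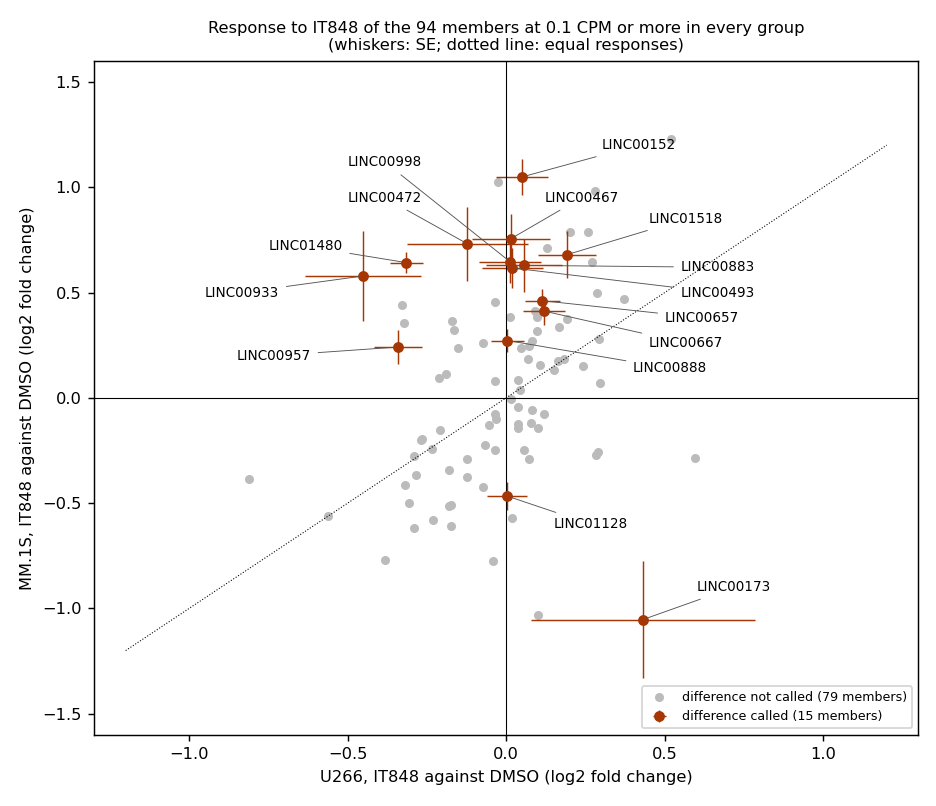
Log2 fold change with IT848 in U266 (horizontal axis) and MM.1S (vertical axis) of the 94 members with at least 0.1 CPM in every group mean. Red points with SE whiskers are the 15 members whose responses were called different, grey points the other 79, and the dotted line marks equal responses; LINC01480 and LINC00957 lie at the upper left, and LINC00173 at the lower right.

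Neighbouring coding genes were called in either direction. Over the 195 pairs, Spearman's rho of the log2 changes was 0.14 in U266 and 0.072 in MM.1S. Of 60 neighbours of the members called in MM.1S, 19 (31.7%) were called in the member's direction and 12 (20%) in the other. Of 135 neighbours of members not called, 20% were called in the direction of the member's change and 23% in the other, beside 38.3% of all symbols called in either. DKK1 was called higher in MM.1S at 1.91, where LINC01468 was near 0. EPB41L1, a cytoskeleton gene beside LINC00657, was called lower in MM.1S at -0.71 where LINC00657 rose, and CTC1, a telomere maintenance gene beside LINC00324, was called lower at -0.42.

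Promoters of risers are shown because members that move together may be compared by sequence. The RefSeq promoter table, GRCh38.p14, holds 112 promoters of 95 members, each 300 bases, 250 before and 50 after the start. Both strands were searched for the core of the antioxidant response element (TGACNNNGC), which NRF2 binds, for the kappa B consensus, for the heat shock element (3 units of GAA and TTC in turn, each 2 bases apart) and for the C/EBP-ATF response element core (TGATGNAA). The antioxidant core occurred in 20.5% of members' promoters and 13.3% of all 35116 promoters, and the kappa B consensus in 6.25% and 11.3%. The heat shock element occurred in none and in 0.49%, the C/EBP-ATF core in 2.68% and 3.62%. Of the 21 members that rose in MM.1S and have a promoter in the table, 5 (23.8%) held the antioxidant core. So did 3 of the 10 that fell (30%) and 14 of the 64 not called (21.9%), so the core was not particular to risers. The kappa B consensus was held by 0 of the 21, 0 of the 10 and 7 of the 64, and the C/EBP-ATF core by 0, 0 and 3. A match describes letters, not a site in use. Capitals mark the antioxidant core on either strand in 3 of the 5 risers, at chr20:36050911-36051210, chr17:8223994-8224293 and chr6:71420696-71420995, all on the minus strand.
LINC00657 (NORAD): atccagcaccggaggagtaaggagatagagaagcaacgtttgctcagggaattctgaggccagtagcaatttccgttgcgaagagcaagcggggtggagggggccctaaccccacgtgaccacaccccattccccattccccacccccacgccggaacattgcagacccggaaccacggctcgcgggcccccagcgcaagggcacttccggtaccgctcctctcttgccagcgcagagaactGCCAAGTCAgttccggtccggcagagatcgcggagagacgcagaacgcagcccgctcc
LINC00324: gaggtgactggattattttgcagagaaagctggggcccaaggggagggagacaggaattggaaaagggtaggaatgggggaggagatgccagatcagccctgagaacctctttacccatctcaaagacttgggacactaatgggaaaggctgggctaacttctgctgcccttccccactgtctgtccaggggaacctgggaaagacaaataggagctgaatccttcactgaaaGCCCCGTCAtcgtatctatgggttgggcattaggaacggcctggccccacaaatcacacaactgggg
LINC00472: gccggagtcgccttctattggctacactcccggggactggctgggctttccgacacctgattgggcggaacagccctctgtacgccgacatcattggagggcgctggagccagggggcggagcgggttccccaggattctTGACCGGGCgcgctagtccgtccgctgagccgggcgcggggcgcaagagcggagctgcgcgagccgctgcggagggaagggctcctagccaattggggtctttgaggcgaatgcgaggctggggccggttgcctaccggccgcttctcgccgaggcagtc

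Other long noncoding RNAs, without a LINC number, were set beside the members. Of 44 fixed by name, 43 were in the tables and 38 were tested. In U266, 7 were called higher and 1 lower, against 4.03% and 4.98% of all symbols. In MM.1S, 10 were called higher and 10 lower, against 18.7% and 19.6%. LUCAT1, an RNA known to be induced by NRF2 and by stress, was called higher in both lines, at 1.36 in U266 and 3.62 in MM.1S. MIR22HG, the host of miR-22, was called higher at 0.92 and 1.17, and LINC-PINT, a p53-induced RNA, at 0.45 and 0.55. MIR600HG was called lower in both lines, at -0.40 and -0.73. SNHG1 and SNHG12 were called higher in U266, at 0.16 and 0.30, and lower in MM.1S, at -0.49 and -0.36. Among all 2178 tested symbols with noncoding transcripts alone other than members, 3.49% were called in U266 and 22% in MM.1S, beside 4.69% and 31.2% of the members. Members had to reach 1 CPM in a group, whereas the 2178 had only to pass the filter on low counts. The shares are not matched for level, and nothing is read from their difference.

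The rule's threshold fell among RNAs of nearly equal level. Just inside it, the highest group mean was 1.001 CPM for LINC01424, 1.02 for LINC00652 and 1.02 for LINC01087, all 3 in U266. Just outside it were LINC01206 at 0.997, LINC00115 at 0.993 and LINC00926 at 0.975 CPM. A group mean of at least 10 CPM was reached by 35 members, 30 CPM by 14 and 100 CPM by 4.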

How the data were processed

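Tables of 12 RNA-seq libraries list RefSeq transcripts with 3 values. The authors deposited, per the file headers, read counts, FPKM, and TPM that sum to 1000000 per library (TPM was not analysed). The submitters' processing notes name bcl2fastq, Trimmomatic 0.36, STAR 2.5.2b, Subread 1.5.2 (featureCounts) and hg19. The strand setting, annotation release and handling of multiply aligned reads were not given in the sources used here.

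Counts were summed over a symbol's transcripts, which repeats reads of shared exons. Intervals cover counting error only. The test was edgeR 4.0.16 (glmQLFit, robust, glmQLFTest) on all 12 libraries with 4 group means, TMM and filterByExpr (minimum count 10), with Benjamini-Hochberg adjustment over 16782 symbols and calls below 0.05. Levels are TMM-scaled CPM with SD, log2 changes have SE, and the deposited FPKM of the most counted transcript gave levels per length. The procedure was tested on simulated data. Alternatives were DESeq2 1.42.0, RLE scaling, no filter, the most counted transcript, the compared groups alone, each library left out, both libraries with reads of the other line left out, a replicate block and a length offset.

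Members and lists were chosen with earlier results of these data known. Named were called members with the 12 largest changes per direction in each IT848 contrast, the 10 largest line differences per direction, the 6 highest FPKM per line, members with a protein-coding or other well-known name, 3 LINC symbols on each side of the threshold and the 6 largest differences of responses. LINC00674, neighbours, other noncoding RNAs with values and members beyond these ranks were picked after their values were seen. Of the line markers, CCND1 and IL6 summed to 387.0 to 513.0 CPM in U266 and 2.86 to 6.31 in MM.1S, and MAF, ITGB7 and CCND2 to 401.5 to 474.5 and 8848 to 10630.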

Additional observations from a re-analysis of the deposited data

Results flagged for a closer look

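In 6 members with the largest differences of the IT848 responses (MM.1S minus U266, log2), the test of the difference itself was called by edgeR. LINC01087 differed by -4.19 and LINC01021 by -3.04, both fitted values that rest on 8 and 16 counts in MM.1S DMSO libraries and depend on the prior count. Both calls were lost without MM.1S DMSO replicate 2, the library with traces of U266 transcripts, with edgeR adjusted p of 0.0633 and 0.0827, and without MM.1S DMSO replicate 1 or MM.1S IT848 replicates 1 or 2. That of LINC01087 was also lost without MM.1S IT848 replicate 3. LINC00877 differed by 2.00, on 6 and 27 counts in MM.1S, and by 1.54 without MM.1S DMSO replicate 2 (edgeR adjusted p = 0.0568), and was also not called without MM.1S IT848 replicate 2. LINC00173 differed by -1.48, LINC00933 by 1.03 and LINC00152 by 0.999. The call of LINC00173 was lost without any of 9 single libraries, all but MM.1S DMSO replicate 3 and MM.1S IT848 replicates 1 and 3, and that of LINC00933 without U266 DMSO replicate 3, MM.1S DMSO replicate 1 or MM.1S IT848 replicate 2. The call of LINC00152 held in every alternative. LINC00933 had 1.99, 1.64 and 2.22 CPM in U266 with DMSO and 1.32, 1.31 and 1.63 with IT848, and 0.634, 0.811 and 0.562 in MM.1S with DMSO and 0.901, 1.198 and 0.873 with IT848.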

How the results depend on the processing

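Of 99 named values, 72 were called under every alternative run, 27 lost their call under at least 1, and none reversed. The lost calls were 4 of 6 in U266, 12 of 40 in MM.1S, 10 of 18 in the difference and 1 of 35 between lines. In U266, 6 members were called, 12 with the most counted transcript, 12 with only the groups compared, and 2 to 8 with a library left out. In MM.1S, 40 were called and 32 to 48 with a library left out. The difference of the responses was called for 18, for 9 without both libraries with reads of the other line, and for 10 to 19 with a library left out. The line differences were called for 115 under DMSO, 112 to 116 with a library left out, and for 112 under IT848, 107 to 113. With a threshold of 0.5 CPM there were 155 members, with 2 CPM 95, and by the most counted transcript 156.

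Deviations of the libraries from their group means did not settle whether the numbers of the replicates pair the samples. Same-numbered DMSO and IT848 libraries had correlations between -0.001 and 0.044 for U266 and between -0.051 and 0.106 for MM.1S. Those with different numbers had -0.027 to 0.028 for U266 and -0.124 to 0.033 for MM.1S. Libraries numbered 1 in both lines and 3 in MM.1S correlated best with their own number, and the others did not. With the replicate block, 9, 47, 25, 115 and 112 members were called in U266, MM.1S, the difference, and the lines under DMSO and under IT848. For LINC01420 in MM.1S, 0.08 with the length trend taken out was not called. Depth limits LINC00877, LINC01021 and LINC01087 in MM.1S, with 6, 16 and 8 counts over the DMSO libraries. A fit of only the groups compared does not exist for the difference, which uses all 4.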
